A study of Mus musculus with 12 samples.

Results

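The 39 Hox genes of the mouse were followed across the lung and heart of Adam19 wild type (WT) and knockout (KO) mice. Members were all genes of the deposited gene table whose symbol is Hoxa, Hoxb, Hoxc or Hoxd followed by a paralog number, which gave 39 of 55679 genes, 11 in the Hoxa cluster, 10 in Hoxb, 9 in Hoxc and 9 in Hoxd. RNA was prepared from the whole lung and the whole heart of 6 adult male mice of the 129S6/SvEvTac strain, and total RNA was sequenced on stranded libraries. There were 3 WT mice, with both Adam19 alleles intact, and 3 KO mice, homozygous in every cell for the Adam19-tdTomato allele, in which a tdTomato reading frame and an antisense hygromycin resistance cassette take the place of exons 6 and 7. Each mouse gave 1 lung and 1 heart library, so the 12 libraries form 4 groups of 3, and the same replicate number in lung and heart of a genotype stands for the same mouse. No animal of either genotype received a treatment, and lung and heart could be compared within each genotype in mice that the other genotype does not share.

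Hox genes encode homeodomain transcription factors that give cells their position along the head to tail axis. They lie in 4 clusters, and paralogs with low numbers are used from the hindbrain and pharynx backwards while those with high numbers are used in the lower trunk and limbs. Many adult tissues keep the Hox code of the place where their mesenchyme arose. Hoxa5 and Hoxb5 are known in the lung, where they act in the mesenchyme during branching of the airways. Hox proteins bind DNA together with TALE cofactors of the Pbx and Meis families, retinoic acid opens the clusters from the low paralog end, and Polycomb and Trithorax complexes keep them closed or open.

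On GRCm39 the Hoxa cluster lies on chromosome 6 from 52132570 to 52237822 (105.3 kb), Hoxb on chromosome 11 from 96085106 to 96259082 (174.0 kb), Hoxc on chromosome 15 from 102829538 to 102945278 (115.7 kb) and Hoxd on chromosome 2 from 74498654 to 74595486 (96.8 kb). Hoxb is on the same chromosome as the targeted Adam19 gene, 50.05 Mb away from it. RefSeq promoter windows, which span the start of a transcript, were at hand for 22 Hox genes. Of these, 3 windows are shown because they belong to the member with the largest WT difference between lung and heart (Hoxa5), to a Hoxb member higher in the lung in both genotypes (Hoxb4) and to the tested member that was not higher in the lung in either genotype (Hoxd8). They are written 5′ to 3′ on the strand of the gene, with capitals at the retinoid receptor half-site AGGTCA and the CCAAT box, each searched on both strands. The windows are chr6:52181518-52181817 on the minus strand, chr11:96208843-96209142 on the plus strand and chr2:74534709-74535008 on the plus strand of GRCm39.
Hoxa5: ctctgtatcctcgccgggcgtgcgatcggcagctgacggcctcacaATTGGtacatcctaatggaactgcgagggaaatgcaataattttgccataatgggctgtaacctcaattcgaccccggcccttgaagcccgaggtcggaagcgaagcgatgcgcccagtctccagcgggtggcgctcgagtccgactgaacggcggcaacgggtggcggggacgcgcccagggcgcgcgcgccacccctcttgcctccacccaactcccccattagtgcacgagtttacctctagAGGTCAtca
Hoxb4: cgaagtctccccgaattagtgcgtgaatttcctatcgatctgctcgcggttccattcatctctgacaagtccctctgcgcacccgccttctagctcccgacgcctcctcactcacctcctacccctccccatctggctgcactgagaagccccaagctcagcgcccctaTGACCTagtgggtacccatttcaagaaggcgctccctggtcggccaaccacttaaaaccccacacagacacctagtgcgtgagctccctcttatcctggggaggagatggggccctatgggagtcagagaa
Hoxd8: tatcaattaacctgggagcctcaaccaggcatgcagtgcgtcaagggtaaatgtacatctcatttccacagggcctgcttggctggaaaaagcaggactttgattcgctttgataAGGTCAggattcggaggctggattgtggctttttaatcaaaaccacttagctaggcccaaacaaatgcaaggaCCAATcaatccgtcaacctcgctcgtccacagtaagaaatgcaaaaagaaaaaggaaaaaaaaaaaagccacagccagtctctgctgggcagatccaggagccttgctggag
Each of the 3 windows holds a half-site. In Hoxa5 it begins 41 bases after the start, in Hoxb4 81 bases before it on the opposite strand (read as TGACCT), and in Hoxd8 135 bases before it, on the RefSeq starts. Among all 32851 windows of this length 16.26% hold AGGTCA, and 7 of the 24 Hox windows do. CCAAT stands in 37.41% of all windows and in 15 of the 24, and TATAA in 24.87% and in 6. The Hox windows held a median of 14.5 CpG pairs (4 to 45) against 7 over all windows, with 29 in Hoxa5, 14 in Hoxb4 and 6 in Hoxd8. These matches describe the letters of the windows and not binding.

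The libraries held between 17674788 and 35862932 estimated read counts. A gene value is the log2 of 1 plus an abundance, after a scaling of each library by the authors. Estimated counts of a gene are its value with the scaling undone, and can differ from its summed transcripts. For Hoxa6 the WT lung mean was 3.52 by gene value and 3.23 by transcripts. The most that a value of 0 was taken to leave room for, 3 estimated counts, corresponds to values between 1.56 and 2.63. The 7SL RNA gene Rn7s1 took between 2.1% and 34.0% of the summed abundance in lung libraries and 2.7% to 11.8% in heart libraries. Adam19 lay between 9.12 and 9.41 in WT lungs and between 3.21 and 4.45 in KO lungs, and between 9.17 and 10.27 in WT hearts and 6.01 and 6.68 in KO hearts, so its groups did not overlap in either tissue. All 8 lung epithelium markers rose in the lung and all 8 heart muscle markers rose in the heart in both genotypes, as the tissue labels say.

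Most Hox genes had no or almost no reads in either organ. Of the 39 members, 11 were at 0 in all 12 libraries (Hoxa11, Hoxa13, Hoxb9, Hoxc8, Hoxc10, Hoxc11, Hoxc12, Hoxd1, Hoxd3, Hoxd11 and Hoxd12). A further 13 were above 0 somewhere and stayed under 3.46, the value of 10 counts after the library scaling, in every library (Hoxa9, Hoxa10, Hoxb1, Hoxb8, Hoxb13, Hoxc4, Hoxc5, Hoxc6, Hoxc9, Hoxc13, Hoxd4, Hoxd10 and Hoxd13), the highest being Hoxd4 at 3.24 in 1 WT heart. The number of estimated counts behind 3.46 thus differs between libraries. The other 15 reached 3.46 in at least 1 library, 7 of Hoxa, 6 of Hoxb, 2 of Hoxd and 0 of Hoxc. The authors' table marks 7 members as detected, Hoxa2, Hoxa5, Hoxa7, Hoxb2, Hoxb3, Hoxb4 and Hoxb5, against 13320 of all genes. In the order of paralog number, the lung values of Hoxa and Hoxb ended after paralog 7. Hoxa7 lay between 5.75 and 6.25 in the 6 lungs and the next gene of its cluster, Hoxa9, between 0 and 1.03. Hoxb7 lay between 3.16 and 4.48 and Hoxb8 between 0 and 1.98. Within paralogs 1 to 7 the level did not follow the number, since Hoxb1 was at 0 in 10 of the 12 libraries and Hoxa6 lay below both of its neighbours in all 6 lungs.

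**Figure D1:**
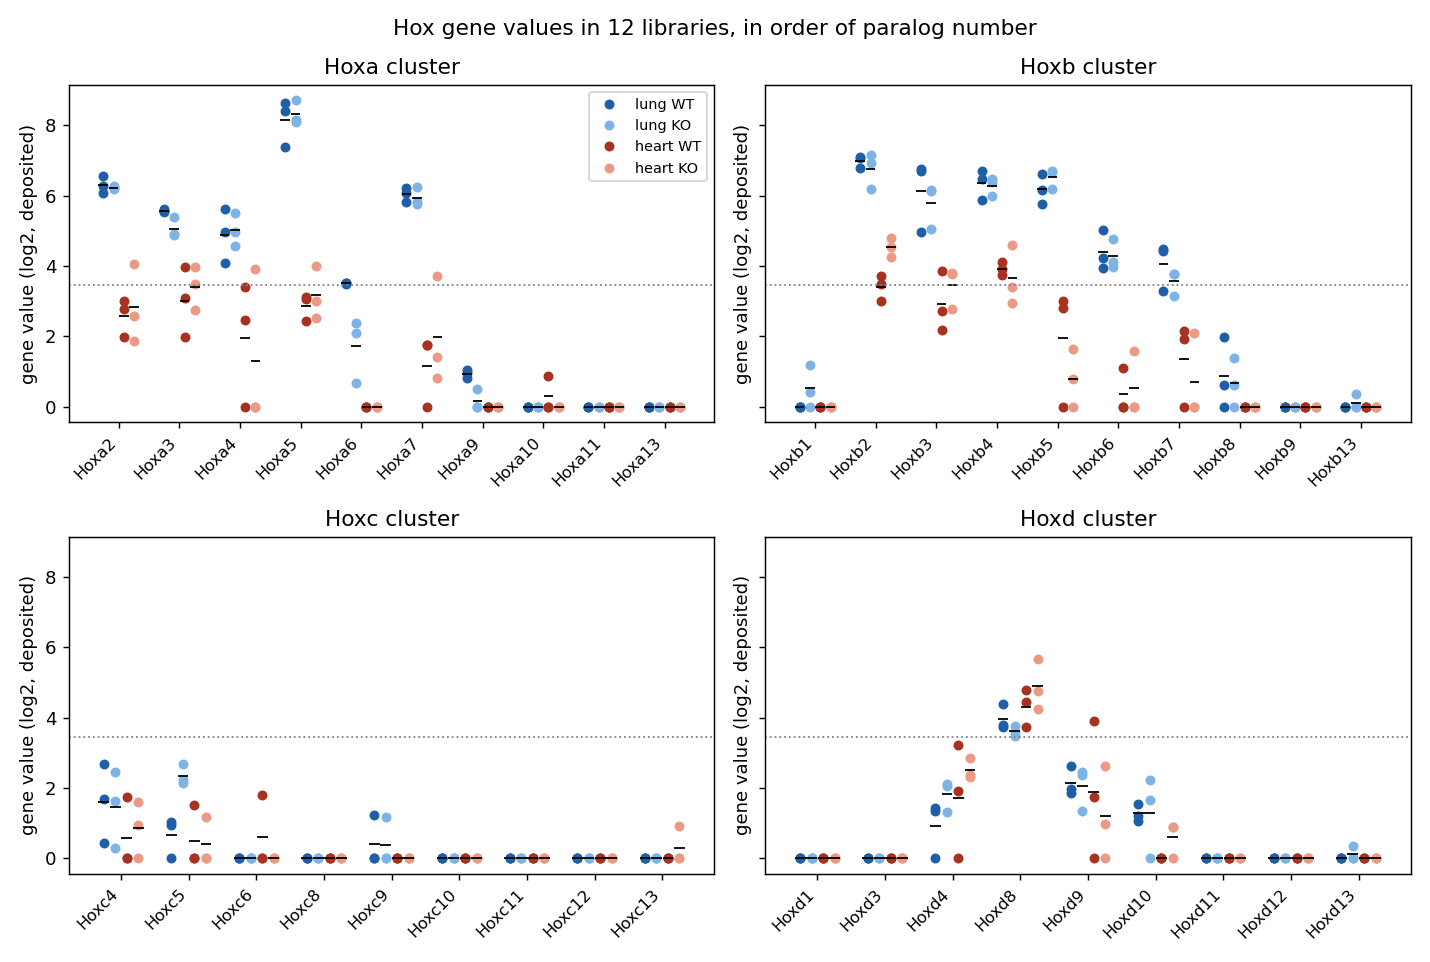
Deposited gene value (log2) of 38 of the 39 Hox genes in the 12 libraries, 1 panel per cluster, genes in order of paralog number. Points are libraries, short bars are the means of 3, and the dotted line is 3.46. Lung points of Hoxa and Hoxb stand above the heart points up to paralog 7 (Hoxa7, 5.75 to 6.25 in the lungs). Hoxb1, at 0 in all hearts and all WT lungs, is an exception, and Hoxd8 does not follow this order.

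In WT mice, 7 Hox genes rose in the lung over the heart and 0 fell, and Hoxa5 had the largest difference. The test used limma with Benjamini-Hochberg adjustment over all 16636 genes with a value of at least 3.46 in 3 of the 6 libraries, and the thresholds of the study were taken for a call, namely a highest group mean no lower than 6, a 1.5-fold difference or more and 0.05 for the adjusted p. Of all genes tested, 29.7% were called higher in the lung and 20.5% lower. A total of 13 members entered the test, and 11 of these (all but Hoxb4 and Hoxd8) did not reach 3.46 in all 3 WT hearts, so most were tested through their lung values and their count is given as a description only. Folds are 2 to the power of a difference of log2 values, which understates the change of a gene with few reads. In tissue as a whole, fewer cells that use a Hox gene and less RNA in each such cell cannot be told apart.

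Hoxa5 (chr6:52178734-52181567, minus strand), which patterns the trachea and lung, had values of 8.64, 8.39 and 7.39 in WT lung against 3.11, 3.06 and 2.44 in WT heart. Every lung lay above every heart, by 5.27 on the log2 scale (standard error 0.41, 38.6-fold, adjusted p = 1.29e-05). The heart values rest on 2.6 to 8.2 estimated counts, against 204.0 to 332.0 in the lungs. Hoxa7 (chr6:52191471-52198834), a trunk gene at the end of the transcribed stretch of the cluster, was at 6.21, 6.07 and 5.83 in the lungs and at 1.75, 0 and 1.77 in the hearts. Its groups were apart by 4.87 (standard error 0.54, adjusted p = 9.62e-05), with at most 2.5 estimated counts in a heart. Hoxa2 (chr6:52138599-52141811), needed for the second pharyngeal arch and the hindbrain, was at 6.56, 6.26 and 6.07 against 1.99, 3.00 and 2.77. The difference of Hoxa2 was 3.71 (standard error 0.40, adjusted p = 7.40e-05), again with no overlap.

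The Hoxb members that were called were neighbours in the cluster, from paralog 2 to 5. The minimum group mean of 6 ends this stretch at paralog 5. Hoxb6, with a WT lung mean of 4.39, differed by 4.03 without overlap. Hoxb5 (chr11:96194162-96196947, plus strand), the paralog of Hoxa5, had WT lung values of 6.17, 6.60 and 5.76 and WT heart values of 2.80, 3.02 and 0. Its hearts spread widely, and the difference of 4.24 had the largest standard error of the called members (0.78, adjusted p = 0.00159). Hoxb2 (chr11:96241351-96244838), a hindbrain gene, was at 7.06, 6.79 and 7.09 against 3.72, 3.00 and 3.47. Its 3 lungs lay close together and above all hearts, by 3.58 (standard error 0.33, adjusted p = 3.28e-05). Hoxb3 (chr11:96214152-96238756), also of the hindbrain and pharynx, was at 6.75, 6.71 and 4.96 in the lungs and 2.73, 3.85 and 2.17 in the hearts, a difference of 3.22 (standard error 0.62, adjusted p = 0.00212). The third lung of Hoxb3 lay well below the other two but still above the hearts. Hoxb4 (chr11:96209093-96212464), known from blood stem cells as well as from the neck region, was at 6.48, 6.69 and 5.87 against 3.91, 3.75 and 4.12. Hoxb4 had the smallest difference of the 7, at 2.42 (standard error 0.35, adjusted p = 0.000397), and the highest heart values of them.

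In KO mice, whose animals are separate from the WT animals, 5 Hox genes rose in the lung and 0 fell, of 12 tested. Of these 12, only Hoxb2 and Hoxd8 reached the minimum value for testing in every KO heart. Most were thus tested through their lung values, as in WT mice, and their count is given as a description only. Of all 16802 genes tested, 30.9% were called higher in the KO lung and 22.3% lower. Hoxa5 was at 8.71, 8.15 and 8.08 in the KO lungs and 4.0, 3.01 and 2.53 in the KO hearts, 5.13 apart (standard error 0.39, adjusted p = 7.78e-06). Hoxb5 was at 6.67, 6.69 and 6.19 against 0, 1.63 and 0.78, and its difference of 5.72 (standard error 0.46, adjusted p = 9.79e-06) was the largest of the KO members. Its KO heart values rest on 0, 2.2 and 0.8 estimated counts, under the 3 that a 0 leaves room for, so the size and rank of this difference are uncertain. Both markers of the group thus had no heart library near a lung library in either genotype. Hoxa2 was at 6.26, 6.18 and 6.21 in the lungs and 4.05, 1.87 and 2.57 in the hearts (difference 3.39, standard error 0.52, adjusted p = 0.000462). Hoxb4 was at 6.47, 6.0 and 6.38 against 4.59, 2.95 and 3.39 (difference 2.64, standard error 0.43, adjusted p = 0.000662). Hoxb2 was at 7.14, 6.92 and 6.18 against 4.80, 4.26 and 4.53 (difference 2.21, standard error 0.32, adjusted p = 0.000289), the smallest difference of the 5. Hoxa7 and Hoxb3 were not called in KO mice because their highest group means, 5.93 and 5.77, missed the minimum of 6. Their KO lungs were at 6.25, 5.75 and 5.81 for Hoxa7 and 6.15, 6.12 and 5.05 for Hoxb3, and their KO hearts at 3.71, 1.43 and 0.81 and at 3.80, 3.77 and 2.77. The differences were 3.95 for Hoxa7 (standard error 0.69) and 2.33 for Hoxb3 (standard error 0.43), with all lungs above all hearts.

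Other tested members lay under the minimum of 6 in both genotypes and had an adjusted p below 0.05, as 62.3% of all genes tested did in WT and 73.2% in KO mice, with lungs above all hearts. Among them, Hoxb6 differed by 4.03 (standard error 0.52), Hoxa6 by 3.52, Hoxa4 by 2.93 and Hoxa3 by 2.55 in WT mice. Hoxa6 was at 0 in every heart of both genotypes and at 3.50 to 3.53 in WT lungs, so that its mean there was at least 2.37-fold higher than 3 estimated counts in each heart. In KO mice Hoxb6 differed by 3.75, Hoxa4 by 3.71 and Hoxa3 by 1.65. With Hoxa7 and Hoxb3 counted in, the lungs lay above all hearts in 12 of 13 tested members in WT and 11 of 12 in KO mice, where 41.7% and 45.9% of all genes tested did so. Most of these members entered the test through their lung values, which favours this direction, so the counts are a description only.

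Hoxd8, a trunk gene, was the only Hoxd member tested and the one that did not stand higher in the lung. It was at 3.73, 3.79 and 4.37 in WT lungs and 3.73, 4.77 and 4.44 in WT hearts, which overlap (difference −0.35, standard error 0.42, adjusted p = 0.49). The WT difference was −1.59 under quantile normalization (adjusted p = 0.0129) and 0.04 with limma-voom (adjusted p = 0.944), so it depends on the scaling. In KO mice it was at 3.58, 3.76 and 3.49 in lungs and 4.75, 5.67 and 4.26 in hearts, so that all lungs lay below all hearts. The KO difference of −1.28 (standard error 0.40, adjusted p = 0.0188) was not called because the highest group mean was 4.89. Its adjusted p was 0.0514 without lung KO replicate 1, 0.0524 without lung KO replicate 3, 0.057 without heart KO replicate 2 and 0.218 with limma-voom, where the difference was −0.65. Under quantile normalization it was −2.55 (adjusted p = 0.000502), and with summed transcripts −0.99 (adjusted p = 0.0133). Its neighbour Hoxd9 was at 3.90 in 1 WT heart, at 2.62 or lower in the other 11 libraries and untested. Hoxd4 lay between 0 and 3.24 in the hearts and between 0 and 2.12 in the lungs, but 48.8% of its 31-base words also occur in other genes, first of all Gm28230 and Hoxd3, so that its reads and those of Hoxd3 can be split between the 2. For the called members and Hoxd8 this share was at most 1.9%, except for Hoxa2 at 9.6%, most of it shared with the gene model Gm28308.

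**Figure D2:**
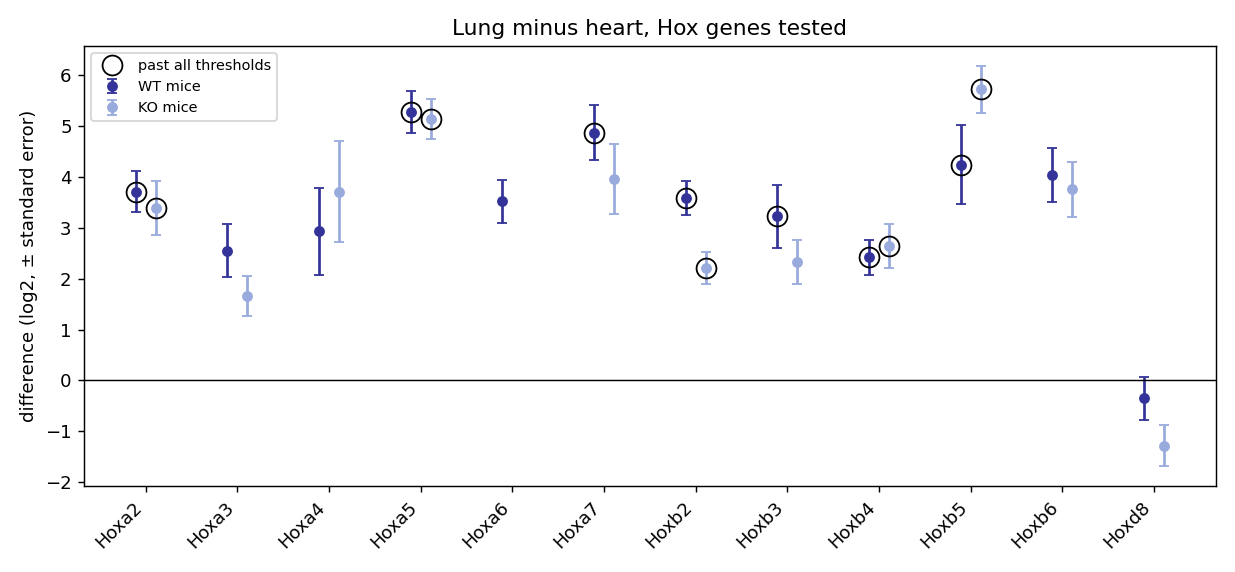
Lung minus heart difference (log2, ± standard error from limma) of the Hox genes tested, in WT and KO mice, with circles around members past all thresholds. Hoxa5 stands at 5.27 in WT and 5.13 in KO mice, and Hoxd8 below 0 in both (0.04 in WT mice with limma-voom).

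Whether the difference between the organs changed with loss of Adam19 was asked in a model with both tissues and genotypes. In 1 model of all 12 libraries, 0 of 14 Hox genes tested had a lung minus heart difference that changed between genotypes at an adjusted p under 0.05, and 2 had an unadjusted p under 0.05. Of all 17666 genes tested 0.00566% were called and 7.88% had an unadjusted p under 0.05. The 2 members were Hoxb2, whose difference was 1.37 smaller in KO mice (−1.37, standard error 0.45, adjusted p = 0.548), and Hoxa6 (−1.80, standard error 0.76, adjusted p = 0.624). The markers Hoxa5 and Hoxb5 had changes of −0.14 (standard error 0.60) and 1.48 (standard error 0.99).

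To compare levels between genes, estimated counts were divided by transcript length. Per kilobase, Hoxa5 was the most abundant Hox gene in the lung, at 160 ± 63.5 (SD, n = 3) normalized counts per kilobase in WT and 172 ± 43.2 in KO lungs. Hoxb2 followed at 70.8 ± 8.1 in WT and 62.3 ± 20.1 in KO lungs, and in both genotypes every lung had more Hoxa5 than any lung had Hoxb2. Then came Hoxb5 (35.0 ± 10.2 in WT, 43.9 ± 8.32 in KO), Hoxa7 (34.1 and 32.2), Hoxb4 (32.2 and 30.3) and Hoxa2 (30.4 and 28.6). In WT lungs, from Hoxb5 through Hoxb3 (27.9 ± 15) and Hoxa4 (19.4 ± 10) to Hoxa3 (18.0 ± 1.58), each gene overlapped the next over the 3 libraries, so their order is not resolved. In the heart the order was another. Hoxd8 was first in WT hearts at 7.16 ± 2.34 per kilobase, before Hoxb4 (5.39 ± 0.77) and Hoxb2 (5.22 ± 1.67), and in KO hearts Hoxb2 (12.6 ± 2.45) and Hoxd8 (11.5 ± 5.6) were first. KO heart replicate 2 had 17.8 for Hoxd8, against 9.86 and 6.94 in the other KO hearts. Its value includes a short transcript of 557 bases (ENSMUST00000151380.2) at 3.02, which was at 0 in every other library and weighs heavily per kilobase. Hoxa5 took place 5 in WT hearts and place 4 in KO hearts, at 3.20 ± 1.1 and 4.80 ± 2.87. Each of the 10 most abundant members in the heart overlapped the next, so no order among them is given as firm.

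**Figure D3:**
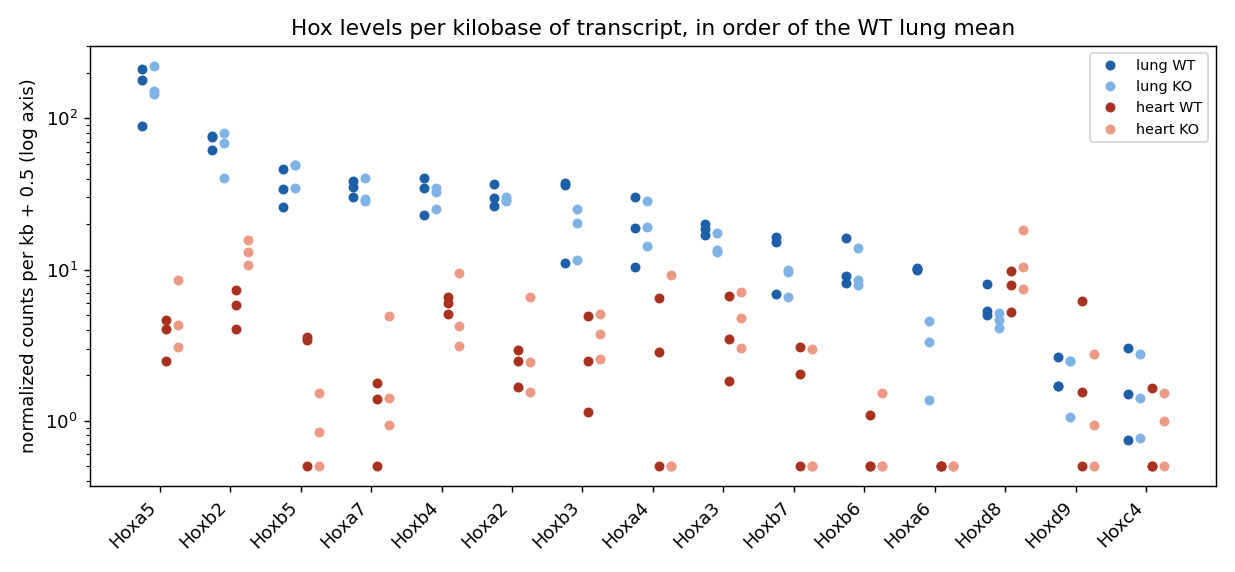
Normalized counts per kilobase of transcript, plus 0.5, on a log axis for 15 Hox genes with high WT lung means. Points are libraries; Hoxa5 is highest in the lungs (mean 160 in WT) and Hoxd8 has lung and heart points at like height.

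Summed over the 39 members, Hox genes took 32.7 to 43.2 ppm of the summed abundance in WT lungs and 36.2 to 56.3 ppm in KO lungs, against 3.04 to 3.17 in WT hearts and 2.76 to 6.25 in KO hearts. Without Rn7s1 in the total the lungs held 33.4 to 65.4 ppm in WT and 45.5 to 62.9 ppm in KO mice, with WT lung replicate 1 moving from 43.2 to 65.4 ppm, and the hearts 3.17 to 3.32 and 3.13 to 6.66 ppm. The lungs lay above all hearts on both scales, and the WT and KO ranges overlapped in both tissues. Per kilobase, Hoxa genes made up 52.5% to 62.6% of the Hox transcripts in the 6 lungs and Hoxb genes 35.0% to 44.3%, while Hoxc made up at most 0.775% and Hoxd at most 2.96%. In the hearts the shares were 23.3% to 45.7% for Hoxa, 33.9% to 43.8% for Hoxb and 15.5% to 42.8% for Hoxd. The Hoxd share of every heart was thus above that of every lung, at a far lower total. Paralogs 4 to 7 held 59.0% to 71.4% of Hox transcripts in the lungs and 22.4% to 56.3% in the hearts, and paralogs 8 to 13 held 1.09% to 2.84% and 12.3% to 36.1%. The mean paralog number weighted by these transcripts was 4.21 to 4.39 in the lungs and 4.05 to 5.12 in the hearts, so the 2 organs overlapped in it.

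The KO heart of replicate 1 stood apart from the other hearts in its Hox values. It had 10 members at 3.46 or more, against 4 and 2 in the other KO hearts and 3 to 4 in the WT hearts, and 6.25 ppm of Hox transcripts against at most 3.66 ppm. Hoxa2 (4.05), Hoxa4 (3.91), Hoxa5 (4.0) and Hoxa7 (3.71) were each highest among the 6 hearts in this library, while Hoxb5 was at 0 in it. The gene value of Hoxa7 exceeds its transcripts, which were at 0.98 and 1.82 in this library. Without it the same 5 members were called between KO lung and heart, and the difference was 5.54 for Hoxa5 and 4.81 for Hoxa7. The level of lung epithelium markers in this heart was a median of 0.254% of that in KO lungs, with 0.173% and 0.0276% in the other KO hearts.

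Heart levels were also expressed as a percentage of lung levels for the Hox genes and for those markers. Over the 6 hearts, each of the 8 epithelial markers (among them Sftpc, surfactant protein C, and Ager of alveolar type I cells) was at 0.00597% to 0.62% of its mean lung level. Heart levels of Hox genes ranged more widely. That of Hoxa5 was 1.48% to 4.64% of its lung level, that of Hoxb4 8.65% to 29.7%, that of Hoxb2 5.56% to 24.3% and that of Hoxd8 82.1% to 443%. The 443% was in KO heart replicate 2, with 229.7% and 161.5% in the other KO hearts. Other members reached 0 in at least 1 heart, with 0% to 9.66% for Hoxb5, 0% to 19.9% for Hoxa7, 0% to 43.3% for Hoxa4, 0% to 10.5% for Hoxb6 and 0% to 29.8% for Hoxb7, and Hoxa6 was at 0 in all 6, so the members did not all lie above the epithelial markers in every heart. The 19.9% of Hoxa7 rests on its gene value in KO heart replicate 1, which exceeds its transcripts there. Leukocyte markers in the hearts ranged from a median of 3.4% to 5.69% of the lung level per heart, and all 9 rose in the lung in both genotypes. Single leukocyte markers spread widely, with Csf1r at 51.5% to 70.8%, Itgam at 32.5% to 46.5% and Cd68 at 19.5% to 35.6%. The rest reached at most 7.94% (Cd79a). Of the 7 endothelial markers 6 rose in the lung in both genotypes, and of the 6 mesothelial and epicardial markers 5 rose and 1 fell. The 8 fibroblast markers did not share a direction, with 2 higher, 2 lower and 4 not called in both genotypes, and their summed level of 14.62 to 15.14 in the lungs (log2) overlapped 15.01 to 15.35 in the hearts. Among smooth muscle markers 3 rose and 3 fell in WT and 1 rose and 4 fell in KO mice. These marker counts stand beside 29.7% of all genes called higher in the lung and 20.5% lower in WT, and 30.9% and 22.3% in KO mice. The part of these cell types in the Hox differences was not tested.

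**Figure D4:**
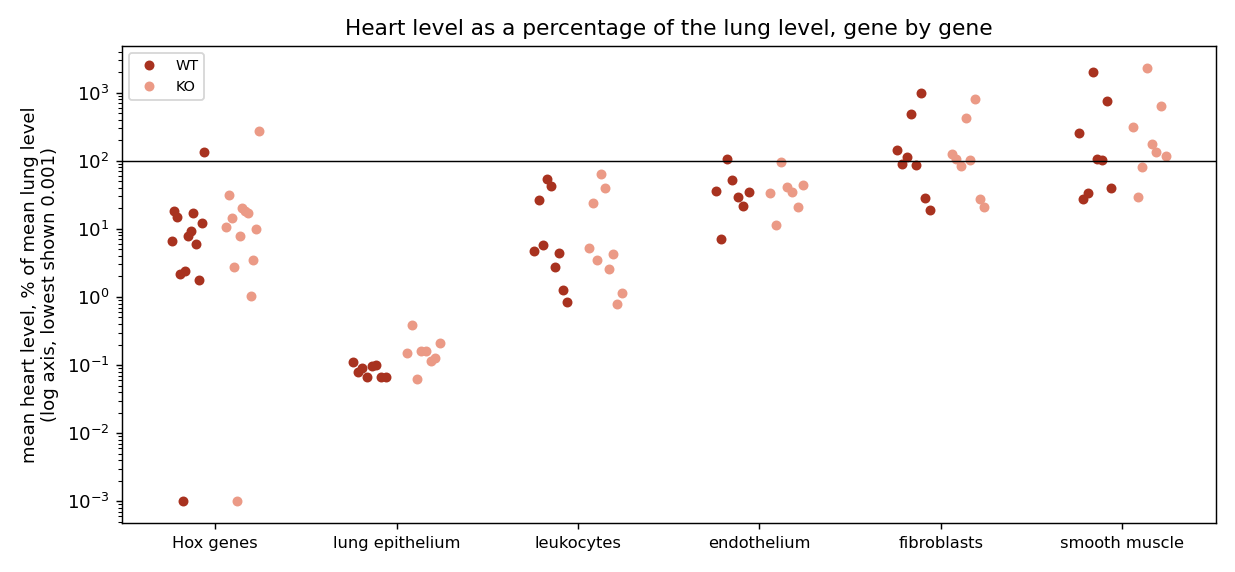
Mean heart level as a percentage of the mean lung level of the same genotype (log axis), 1 point per gene and genotype, for 13 Hox genes and for markers of lung epithelium, leukocytes, endothelium, fibroblasts and smooth muscle. Epithelial markers lie under 1%, Hox genes above them except Hoxa6, which was at 0 in the hearts and is drawn at 0.001, and Hoxd8 lies at or above 100%.

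No Hox gene passed the thresholds between KO and WT mice in either organ, but a member with both group means under 6 could not be called. In the lung 14 members were tested and 0 were called, where 0.0665% of all 16551 genes tested were called, and 1 had an unadjusted p under 0.05 (5.93% of all genes). Hoxa5 was higher by 0.17 (standard error 0.33, adjusted p = 0.931) and Hoxb5 by 0.34 (standard error 0.29, adjusted p = 0.855) in KO lungs. The standard errors of the 7 members called in WT ranged from 0.23 for Hoxa2 to 0.52 for Hoxb3, which sets the size of change that 3 mice against 3 could show. Hoxa6 had the lowest unadjusted p, with KO lungs at 2.38, 0.67 and 2.09 and WT lungs at 3.52, 3.53 and 3.50. All KO lungs lay below all WT lungs, by −1.80 (standard error 0.64, adjusted p = 0.806), on 0.9 to 4.9 estimated counts in KO and 8.7 to 12.6 in WT lungs. Hoxa3 also did not overlap, at 4.87, 4.92 and 5.38 in KO against 5.52, 5.55 and 5.63 in WT lungs (−0.51, standard error 0.28, adjusted p = 0.841). In all, 2 of 14 members did not overlap between genotypes, as did 12.8% of all genes. Hoxc5, too low to be tested, was at 2.69, 2.15 and 2.22 in KO and at 0, 0.96 and 1.03 in WT lungs, which rests on 3.0 to 6.3 against 0 to 1.3 estimated counts.

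In the heart 5 members were tested and 0 were called, where 0.085% of all 15303 genes were called, and 1 had an unadjusted p under 0.05 (7.46% of all genes). The group means of these members were at most 4.89 (Hoxd8 in KO hearts), under the minimum of 6, so none could be called. Without that minimum none passed either, since their lowest adjusted p was 0.625, for Hoxb2. Hoxb2 was at 4.80, 4.26 and 4.53 in KO hearts and at 3.72, 3.00 and 3.47 in WT hearts. All KO hearts lay above all WT hearts, by 1.13 (standard error 0.42, adjusted p = 0.625), and 13% of all genes did not overlap in either direction. Estimated counts of Hoxb2 were 19.0 to 29.0 in KO and 4.1 to 13.0 in WT hearts. The other tested members, Hoxa3 (0.39), Hoxb3 (0.53), Hoxb4 (−0.28) and Hoxd8 (0.57), overlapped between the genotypes. Markers of smooth muscle moved the same way as Hoxb2 in these hearts, since 5 of 8 (Acta2, Myh11, Tagln, Cnn1 and Lmod1) had all KO hearts above all WT hearts (7.82% of all genes did), though 0 of 8 were called, with a summed level of 15.92 to 16.08 in KO and 15.55 to 15.98 in WT hearts, which overlap. The cartilage, trachea and oesophagus markers summed to 7.56 to 8.16 in KO and 6.17 to 6.57 in WT hearts, with Matn1 and Krt13 at 0 in all 6, and the nerve markers to 8.27 to 9.14 and 7.91 to 8.37. Their part in the value of Hoxb2 was not tested.

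**Figure D5:**
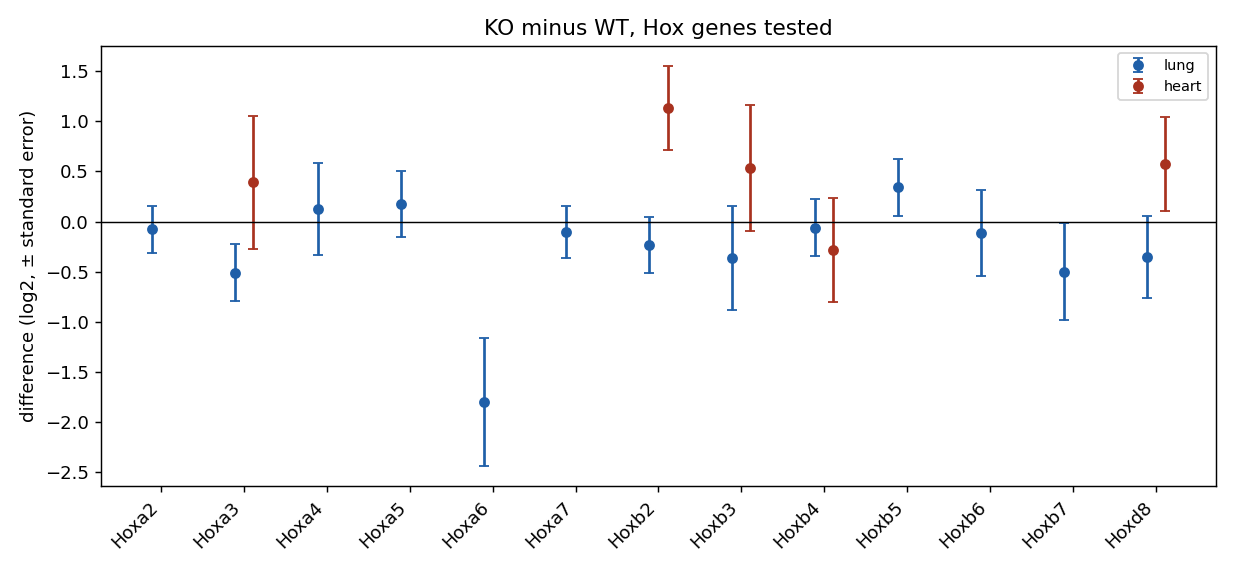
KO minus WT difference (log2, ± standard error from limma) of the Hox genes tested, in lung and in heart. No point passed the thresholds, and no heart member could, as all group means there were under 6. Hoxa6 in the lung (−1.80) and Hoxb2 in the heart (1.13) lie farthest from 0.

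Most noncoding RNAs of the clusters that were tested stood higher in the lung, a direction that the filter favours, as for the coding members. Of 15 on the list 11 were in the gene table, 6 were tested in WT mice and 0 were called, because their highest group means were under 6. Named after their values were seen, Hotairm1 (5.82, 6.28 and 5.84 in WT lungs, 3.30, 0 and 1.28 in WT hearts), Hoxaas2, Hoxaas3, Hoxb3os and Hoxb5os had all WT lungs above all WT hearts. Hoxb5os, antisense to the Hoxb5 region, was at 0 in all 6 hearts and at 2.71 to 5.27 in the 6 lungs. Halr1, beside the low paralog end of Hoxa, went the other way, with WT lungs at 0, 1.22 and 0.45 and WT hearts at 4.57, 4.53 and 3.74. In KO mice 3 were tested (Hotairm1, Hoxaas2 and Hoxb3os), all with lungs above hearts, where 45.9% of all genes tested had this. These transcripts overlap or lie beside Hox genes on the opposite strand, and whether the quantification used strand is not given in the sources used here. Of the 7 microRNA hairpins of the clusters 6 were in the table and 0 reached the test. Of the 8 homeobox genes beside the clusters and of the ParaHox group (Evx1, Evx2, Cdx1, Cdx2, Cdx4, Gsx1, Gsx2 and Pdx1), 7 were at 0 in all libraries and Evx2 was at 0.92 in 1 KO lung.

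The cofactors of Hox proteins were measured in both organs. Of 9 TALE genes 8 were tested, and 3 rose in the lung in WT and 4 in KO mice, with 0 lower, where 29.7% and 30.9% of all genes were called higher. Pbx2, Pbx3 and Pknox1 rose in both genotypes, by 0.98, 0.85 and 0.60 in WT and 0.71, 0.81 and 0.87 in KO mice. The median difference of the 8 was 0.54 in WT and 0.62 in KO mice, against 0.30 and 0.28 over all genes tested.

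Some genes of the retinoic acid pathway were higher in the lung and some in the heart. Of 19 genes 15 were tested in WT mice, where 8 rose in the lung and 3 fell, and of 14 tested in KO mice 7 rose and 3 fell. Of all genes 29.7% were called higher and 20.5% lower in WT, and 30.9% and 22.3% in KO mice, so the count that fell is near that of all genes. Aldh1a1, which makes retinoic acid, rose by 5.59 in WT and 5.10 in KO lungs, and Rdh10, which makes its precursor retinaldehyde, by 2.28 and 2.13. Cyp26b1, which breaks retinoic acid down, rose by 1.58 and 1.92. The receptor Rxrg was higher in the heart, with differences of −5.78 and −6.12. In KO lungs and hearts against WT 0 genes of this pathway were called.

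Regulators that hold the clusters closed or open were all tested. Of 23 Polycomb genes 4 rose in the lung and 1 fell in WT, and 8 rose and 2 fell in KO mice, against 29.7% higher and 20.5% lower over all genes in WT and 30.9% and 22.3% in KO mice. Rbbp7, a histone binding subunit, fell by 1.44 and 1.21 in the lung, while Phf1 (0.83 and 0.62), Phc2 (0.75 and 0.68) and Mtf2 (0.74 and 0.63) rose. Of 14 Trithorax and MLL genes 2 rose in WT and 5 in KO mice and 0 fell, read against the same shares, and Kdm6a, a demethylase of the Polycomb mark, rose in both genotypes (0.67 and 0.83). The medians of the Polycomb list (0.28 in WT, 0.43 in KO) and of the Trithorax list (−0.14 and 0.20) were set beside 0.30 and 0.28 over all genes. In the genotype comparisons 0 genes of either list were called in either organ.

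Transcription factors other than Hox that mark the organs were set beside them. Of 13 lung position factors 9 rose in the lung and 4 fell in both genotypes. The most different were Nkx2-1 (9.09 in WT, 8.73 in KO), which sets lung and thyroid identity, Foxa2 (8.95 and 8.12, listed at 0 in all WT hearts) of the foregut endoderm, and Tbx4 (8.25 and 8.29) and Foxf2 (8.10 and 6.70) of the mesenchyme. Of the 11 heart position factors 9 were tested in WT and all 9 fell in the lung, and in KO mice 9 of 10 fell. Over all genes tested, 29.7% were called higher in the lung and 20.5% lower in WT, and 30.9% and 22.3% in KO mice. Irx4 (−8.90 and −9.14), Nkx2-5 (−6.96 and −7.61), Gata4 (−6.87 and −6.80) and Hand2 (−6.44 and −7.42), all of heart development, were farthest apart. Others on the lists differed less, such as Wt1 (−0.88 in WT) and Hey2 (−1.20). Gata6 and Tbx5 are on both lists and were higher in the heart. In the genotype comparisons 0 genes of either list were called.

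At the level of transcripts, 82 belong to Hox genes. In the lungs the main Hoxb2 transcript (ENSMUST00000100523.7) lay between 5.95 and 6.97 after the library scaling and a second, annotated as a retained intron (ENSMUST00000182030.2), between 2.22 and 4.14. Hoxb5 likewise had a main transcript (ENSMUST00000049272.5) at 5.56 to 6.49 and a retained intron transcript (ENSMUST00000190470.2) at 2.13 to 3.38.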

How the data were processed

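RNA-Seq was available for the lung and heart of 3 WT and 3 KO mice, 12 libraries in 4 groups. Per the study's methods, reads were quantified with Salmon against GENCODE transcripts of mm39. The submitters' processing notes also name cutadapt, STAR and limma 3.42.2. The authors deposited a transcript table of log2(1 + estimated count) and a gene table of log2 normalized abundance, with a scaling constant per library in the gene table between −0.63 and 0.80. The constants were read from genes with 1 transcript and a high value. Estimated counts of a gene were recovered from its gene value with the constant, and can differ from its summed transcripts. The method behind the constants and behind the sum from transcripts to genes is not given in the sources used here. Library depth was 17674788 to 35862932 estimated counts, and intervals or limits from it cover counting error only.

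Since the values are log2 values, limma 3.58.1 (lmFit and eBayes with a variance trend, R 4.3.3) was run on the gene values as deposited. Genes with a value of at least 3.46 in 3 libraries (2 where 1 library was left out) were tested, and p-values were adjusted over all of them by Benjamini-Hochberg. Calls needed a highest group mean no lower than 6, a 1.5-fold difference or more and an adjusted p below 0.05. The change between genotypes of the lung minus heart difference was called without the minimum mean. A value of 0 was kept, and 3 estimated counts were taken as its limit. Exact tests of 3 against 3 cannot go below 0.1 and are not printed. Replicates are separate mice. Lung and heart replicates of a genotype share the mouse by its identifier, and deviations from group means over 17666 genes correlated by 0.049, 0.136 and −0.024 in WT and 0.020, −0.068 and −0.036 in KO mice. Lung and heart of different mice of a genotype correlated by −0.127 to 0.099. The fits were checked on data with known answers.

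Levels per kilobase used the summed counts of listed transcripts over their lengths in GENCODE vM39, in which 81 of 82 Hox transcripts were found. Coordinates are from the same release (GRCm39). Promoter windows come from RefSeq (GRCm38.p6) and were placed on GRCm39 by identical sequence. Words of 31 bases shared with other genes were counted over all transcripts.

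All 39 members enter the counts; values of some single genes are not reported here. Members past the thresholds are given with every library, and of each other list up to 4 genes past them in both genotypes with the largest WT difference. The members, lists and tests were chosen with earlier results of these data known. Other lists (adipocytes, skeletal muscle, thymus, red blood cells) were checked as markers of other cells. Between lung and heart in WT and KO mice, 0 of 6 white adipocyte markers were called higher and 1 lower, of 5 brown adipocyte markers 2 and 3 were lower, of 8 skeletal muscle markers 3 were lower in each with 1 higher in WT, and 1 of 6 thymus markers was higher. Of 5 red blood cell markers 0 were called, and of the 7 nerve markers 2 and 3 were lower and of the 6 cartilage, trachea and oesophagus markers 0 and 1. Over all genes tested, 29.7% were called higher and 20.5% lower in WT, and 30.9% and 22.3% in KO mice. Single lungs differed in these markers. Each skeletal muscle marker was highest among the lungs in WT replicate 2, such as Acta1 at 10.27 (2.27 to 3.80 in the other lungs) and Myh4 at 6.79 (0 to 1.70). The thymus markers Rag1 (5.69) and Rag2 (2.86) were above 0 only in WT replicate 3 among the lungs, where Ptcra and Foxn1 were at 0. The part of such tissue in the Hox values was not tested. No column of other samples was used. Alternatives covered limma-voom, the trend, the filter, the pseudocount, the scaling, summed transcripts, the mouse as a block and leaving out each library.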

Additional observations from a re-analysis of the deposited data

How the results depend on the processing

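The 7 WT and 5 KO calls between lung and heart became 12 in each genotype with no minimum on the group mean (in WT all higher in the lung, in KO 11 higher and Hoxd8 lower). They became 2 (Hoxa5 and Hoxb2) and 3 (these and Hoxb5) under quantile normalization, and 1 in each (Hoxb4 in WT, Hoxb2 in KO) when a gene had to reach 3.46 in every library, which left 2 members to test. Without 1 library the counts were 5 to 7 in WT and 5 to 6 in KO mice. Hoxa7 and Hoxb3 were lost without lung WT replicate 1, and Hoxb3 and Hoxb5 without lung WT replicate 2. Hoxa7 was also lost in WT under median of ratios scaling (4.70), and gained in KO mice with a pseudocount of 5 (2.90) and with summed transcripts (4.49). In KO mice Hoxa7 was gained without lung KO replicate 2 and Hoxb3 without lung KO replicate 3. With the mouse as a block, 7 and 5 were called, and 0 differed between genotypes. The block changed no other call. The genotype comparisons gave 0 called members under every alternative run, among them the one with no minimum on the group mean. The median difference of all genes between lung and heart, 0.30 in WT and 0.28 in KO mice, was 0.72 and 0.95 with limma-voom, 0.17 and 0.16 with the filter in every library, 0.057 and 0.075 with quantile normalization and 0.083 and 0.062 with median of ratios scaling. Per kilobase, 3 of 15 members kept their place in the WT lung order of gene values. Low counts limit the heart values, where few members exceed 10 estimated counts.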
